A study of Homo sapiens with 9 samples.

Results

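The short arm of human chromosome 9, between 10 and 34.5 Mb from its end, was described here as a block of neighbouring genes in L-1236 cells, an established Hodgkin lymphoma cell line. A gene belonged to the block if it had a transcript cluster (the array's unit for 1 gene) and a symbol, and if its start in RefSeq GRCh38.p14 lay within those limits on chromosome 9. CDKN2A, CDKN2B and MTAP were left out by the rule. The rule left 84 genes of the 17687 with a symbol on the array, each with 1 transcript cluster. Of the 84, 31 had a mean above 7 over all 9 arrays on the log2 intensity scale and are called expressed below, and 53 lay under that limit and are called silent.

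Genome-wide expression was measured on Clariom S arrays in 3 groups of 3 arrays. Clone g2_1 (genotype lentiCRIPSPR_v2-LTA_g2) carried a CRISPR/Cas9 knockout aimed at exon 2 of LTA, which encodes the cytokine lymphotoxin alpha. Clone g3_4 (lentiCRIPSPR_v2-LTA_g3) carried one aimed at exon 4. The control, called v2, had received the same lentiviral vector with no LTA guide named (lentiCRIPSPR_v2). All 3 groups therefore carried the vector. Each knockout line was 1 single-cell clone, so that a clone and its guide cannot be told apart. Whether the control was itself cloned is not stated in the labels, and neither is the origin of a group's 3 arrays (1 culture or several). P-values here therefore measure only how far these samples spread, and that spread may be technical. The knockout clones had been kept in conditioned medium of L-1236 cells. Before RNA extraction the cells were grown for 72 h in RPMI with heat-inactivated serum. RNA integrity numbers were 10 on the array numbered 1 of each group and 9.5 or 9.6 on the others, and 250 ng of RNA was labelled per array.

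The middle part of chromosome 9p holds the cluster of type I interferon genes. Interferons are secreted antiviral proteins whose genes are off in most resting cells and are switched on by sensors of viral RNA such as RIG-I. Around the cluster lie unrelated housekeeping genes for ribosome, proteasome-pathway, spindle and mitochondrial proteins, which most dividing cells use. The study asked what loss of LTA does to L-1236 cells. LTA itself had log2 values of 7.97, 7.53 and 7.11 in g2_1, 6.94, 7.25 and 6.61 in g3_4, and 11.58, 11.07 and 11.08 in the control, lower on every knockout array. Of 8 Hodgkin or B cell markers, 4 lay above 7 (TNFRSF8, IRF4, FUT4 and CCR7), while MS4A1 averaged only 4.39. Of 16 markers of other cell types, 3 lay above 7 (NKG7, CSF1R and COL1A2). The summed means of those 16 were 92.6 in g2_1, 92.5 in g3_4 and 97.1 in the control, and PECAM1 made up most of this difference, with means of 5.12, 4.98 and 10.46. The part of these markers in the values below was not tested. In such bulk samples, fewer cells of a type and less RNA per cell cannot be told apart.

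The expressed genes of the block were lower in both knockout clones than in the control, nearly throughout. Over the 31 genes the median log2 fold change was -0.80 in g2_1 and -0.76 in g3_4, and -0.81 with both clones averaged, a ratio of 0.57. The same median over all 7889 expressed genes with a symbol was 0.04, with quartiles of -0.17 and 0.25. In the block the quartiles were -0.90 and -0.54, and 29 of 31 genes lay below 0. The block was chosen by position, but it was proposed because of its measured values in both clones against the control. These values are therefore a description, and nothing is read from their tests.

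With limma and Benjamini-Hochberg adjusted p under 0.05 over all transcript clusters, 25 of the 31 expressed genes were lower in g2_1, beside 10.1% of all transcript clusters with a mean above 7. In g3_4 it was 23 of 31, beside 10.3%. With both clones averaged it was 27 of 31, beside 12.7%, and 23 genes were lower in each clone, beside 8.4%. On all 6 knockout arrays, 25 of 31 genes lay below all 3 control arrays, beside 14.2%. These counts hold KLHL9 and TOPORS, which passed the level limit of 7 only through the control arrays. One gene, AQP3, was higher in each clone, beside 9% of expressed transcript clusters, and its knockout arrays lay above all control arrays, beside 17.3%. Another test, outside limma, gave each gene its own variance in each group and shared no spread between genes. By that test none of the 31 was called lower in either clone alone after adjustment, and 11 were with the clones averaged. At an unadjusted p under 0.05 by the same test, 24 were lower in g2_1 and 22 in g3_4. Both clones were compared with the same 3 control arrays, so their counts are not independent of each other.

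**Figure D1:**
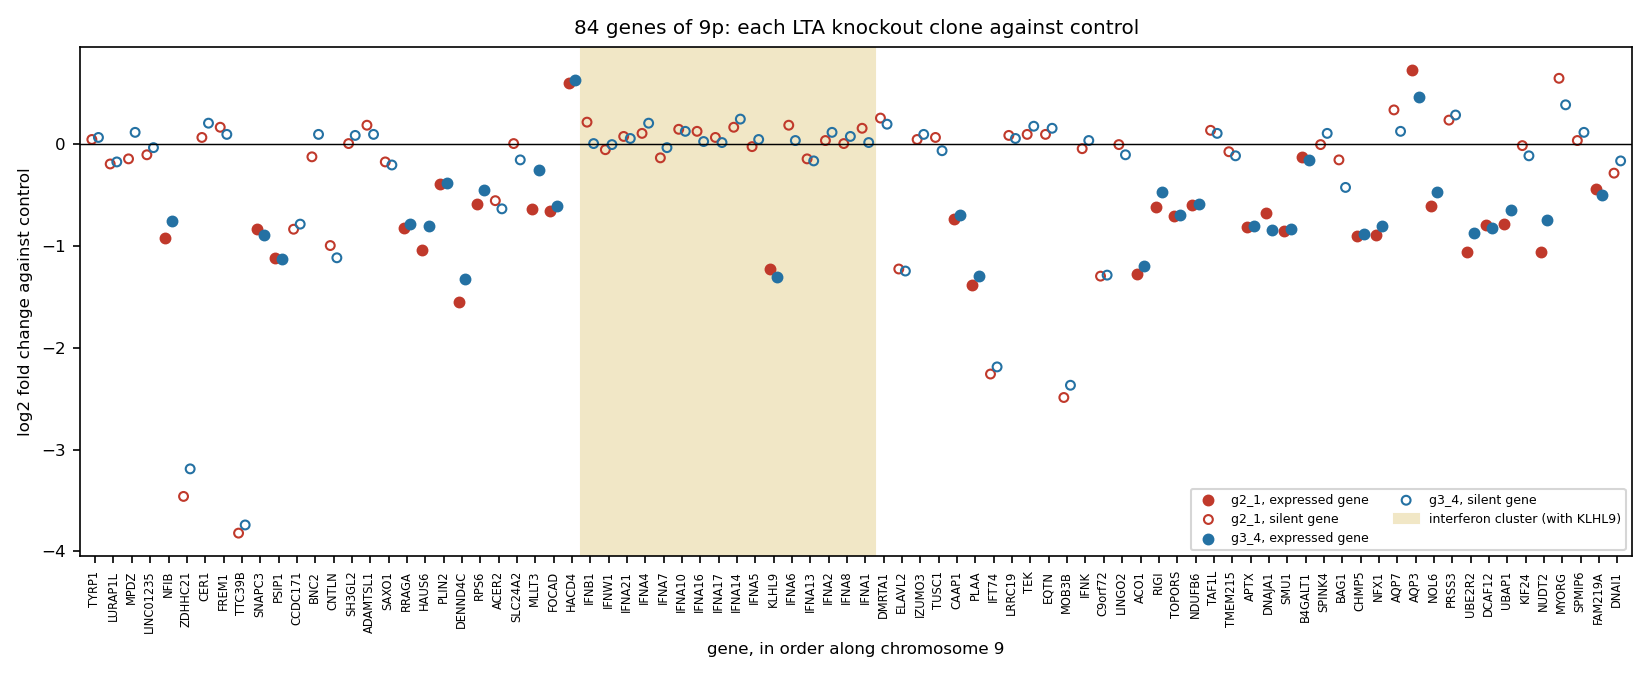
Log2 fold change against the control (y axis, log2) of each of the 84 genes in chromosome order (x axis) for clones g2_1 and g3_4, with expressed and silent genes marked apart. The expressed genes mostly sit between -0.5 and -1.5 in both clones from one end of the block to the other, and the interferon cluster sits on 0.

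Among the genes above the level limit the shift was narrow in size, which the limit itself favoured. The limit set aside TTC39B, ZDHHC21 and MOB3B, although their control means lay above 7. Their averaged log2 fold changes were -3.78, -3.33 and -2.43. Of the 31 expressed genes, 20 had an averaged log2 fold change between -1 and -0.5, 5 were at or below -1, 4 lay between -0.5 and 0, and 2 were above 0. Array by array, the median difference of the 31 genes from the control mean was -0.78, -0.79 and -0.77 in g2_1, and -0.80, -0.69 and -0.75 in g3_4. The control arrays themselves stood at 0.05, -0.02 and 0.00. All 6 knockout arrays thus lay apart from the control arrays by a similar amount.

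It was also spread along the block. The 8 expressed genes before 20 Mb had a median of -0.86 with both clones averaged. The 6 between 20 and 30 Mb had a median of -0.68, and the 17 after 30 Mb one of -0.77. The limits of the block are not edges of the lower values. The nearest expressed neighbour before the block, DMAC1, had an averaged log2 fold change of -1.22, and the nearest after it, RPP25L, had -0.95. The values beyond them were uneven. The next expressed gene before DMAC1, KDM4C, stood at -0.08, and the next after RPP25L, DCTN3, at -0.29, and neither was called. The 20 expressed genes of chromosome 9 before the block had a median of -0.63, with 10 of 20 lower in each clone and 6 called in neither. The 29 expressed 9p genes after it had -0.95, with 22 of 29 lower in each clone. Among all expressed transcript clusters that share was 8.4%. On the long arm, 9q, the median of 218 expressed genes was -0.01. The medians of the other chromosomes lay between -0.15 and 0.19.

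**Figure D2:**
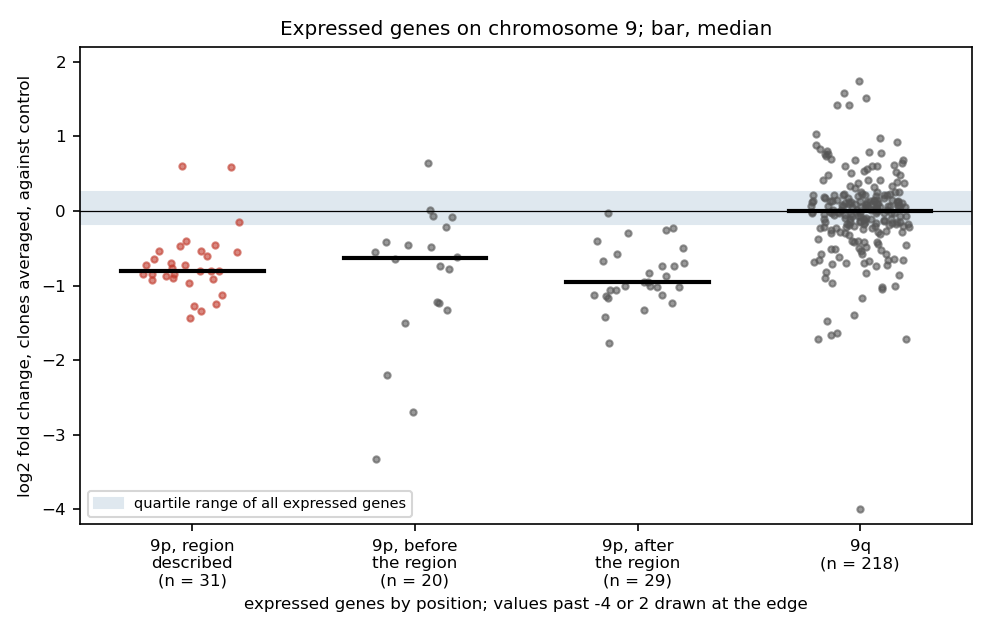
Log2 fold change against the control with both clones averaged (y axis, log2) of expressed genes in the 9p block and in other parts of chromosome 9, 1 point a gene, with the median of each part marked. The block's median of -0.81 stands beside those of the adjoining 9p parts (-0.63 and -0.95), with 9q near 0 at -0.01.

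Among the expressed genes, DENND4C had the lowest averaged value and PLAA the next. DENND4C, an activator of the vesicle-traffic GTPase Rab10, read 7.90, 7.99 and 7.78 in g2_1, 7.84, 8.24 and 8.25 in g3_4, and 9.37, 9.45 and 9.49 in the control. No knockout array came near a control array. Its averaged log2 fold change was -1.44 ± 0.11 (SE). TTC39B, a tetratricopeptide-repeat protein linked in mice to the turnover of the nuclear receptor LXR, had an averaged log2 fold change of -3.78 ± 0.19 (SE) and so ended up among the silent genes. AQP3, a channel for water and glycerol, was the gene called higher in each clone. IFNB1, the interferon beta gene, was near the bottom of the scale on every array. The promoters of these 4 genes are shown because they span the block's patterns: lower, nearly lost, higher and never on. They are RefSeq sequence of GRCh38.p14, 250 bases before to 50 after the gene's start, 5′ to 3′ on the gene's own strand, with each CG dinucleotide in capitals. DENND4C is at chr9:19230263-19230562, plus strand, TTC39B at chr9:15307167-15307466, minus strand, AQP3 at chr9:33447544-33447843, minus strand and IFNB1 at chr9:21077893-21078192, minus strand.
DENND4C: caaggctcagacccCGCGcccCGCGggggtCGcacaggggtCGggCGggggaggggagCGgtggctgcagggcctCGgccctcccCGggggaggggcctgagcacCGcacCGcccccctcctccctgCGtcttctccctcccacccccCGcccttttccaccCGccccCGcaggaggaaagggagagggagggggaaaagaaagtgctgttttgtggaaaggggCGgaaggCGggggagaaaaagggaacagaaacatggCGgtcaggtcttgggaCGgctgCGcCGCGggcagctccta
TTC39B: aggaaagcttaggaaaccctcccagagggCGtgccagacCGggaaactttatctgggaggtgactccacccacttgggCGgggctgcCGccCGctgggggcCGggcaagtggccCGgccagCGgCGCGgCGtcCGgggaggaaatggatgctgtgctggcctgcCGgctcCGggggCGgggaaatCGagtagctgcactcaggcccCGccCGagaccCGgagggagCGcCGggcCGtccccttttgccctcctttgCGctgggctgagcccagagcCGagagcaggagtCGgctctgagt
AQP3: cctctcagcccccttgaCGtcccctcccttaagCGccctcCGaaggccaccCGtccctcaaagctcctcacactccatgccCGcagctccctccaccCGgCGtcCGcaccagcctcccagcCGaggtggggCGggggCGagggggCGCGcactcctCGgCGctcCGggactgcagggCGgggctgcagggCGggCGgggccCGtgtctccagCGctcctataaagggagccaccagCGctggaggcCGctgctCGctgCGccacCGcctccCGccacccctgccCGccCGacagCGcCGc
IFNB1: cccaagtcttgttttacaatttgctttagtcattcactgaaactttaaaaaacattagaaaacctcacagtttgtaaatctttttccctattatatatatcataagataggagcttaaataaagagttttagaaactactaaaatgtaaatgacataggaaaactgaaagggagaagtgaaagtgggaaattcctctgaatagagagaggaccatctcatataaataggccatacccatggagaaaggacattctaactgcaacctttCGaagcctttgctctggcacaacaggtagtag

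The first 3 are dense in CG, with 23 such dinucleotides in DENND4C, 25 in TTC39B and 31 in AQP3, while IFNB1 has 1. Of the 84 genes, 74 had a promoter in the RefSeq table. The 27 matched expressed genes had a median of 27 CG dinucleotides per promoter (range 12 to 41), and the 9 silent genes whose knockout arrays all lay below the control had a median of 30. The 25 other silent genes outside the interferon family had 8, the 13 matched interferon genes had 1, and all 35116 promoters of the table had 14. Outside the interferon genes the ranges of these sets overlapped. TOPORS, which was lower in each clone, had 12 CG dinucleotides, while the silent genes SAXO1 and BNC2, which were called in neither clone, had 39 and 37.

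Motifs were searched on both strands of the same 300 bases. GGGCGG, the core letters bound by Sp1-like factors, was in 22 of 27 expressed promoters (81.5%), beside 45% of all promoters in the table. It was in 6 of the 9 silent genes that fell (66.7%) and in 11 of the 25 other silent genes outside the interferon family (44%). The promoters of the table were not split by expression, so a share for expressed genes outside the block is not given. CCGGAAGT, an ETS-type motif, was in 6 of 27 (22.2%), beside 4.14%. TATAAA was in 2 of 27 (7.41%), beside 11.5%. CCAAT was in 6 of 27 (22.2%), beside 34.6%. A match is a description of letters and not of a bound site.

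The list of protein quality control, ubiquitin and related genes was the longest among the expressed genes, with 10 of its 11 measured members. Of the 10, 9 were lower in each clone, beside 23 of 31 in the whole block and 8.4% of expressed transcript clusters. KLHL9 and TOPORS are among the 9 and passed the level limit only through the control arrays, so that the limit favoured their direction. CAAP1 and FOCAD stand on this list although their own known roles, given below, are different. PLAA, a ubiquitin-binding partner of the VCP segregase, read 8.63, 8.67 and 8.25 in g2_1, 8.41, 8.87 and 8.55 in g3_4, and 10.17, 9.88 and 9.67 in the control. Its averaged log2 fold change was -1.34 ± 0.15 (SE), with no overlap between knockout and control arrays. KLHL9, an adaptor of CUL3 ubiquitin ligases, lies inside the interferon cluster but, unlike the interferons, had a 9-array mean above 7, at 7.22. It passed that limit through the control arrays, with means of 6.84 in g2_1, 6.76 in g3_4 and 8.06 in the control. It read 6.56, 7.02 and 6.93 in g2_1, 6.39, 6.86 and 7.02 in g3_4, and 7.72, 8.24 and 8.23 in the control, again without overlap. UBE2R2, a ubiquitin-conjugating enzyme of the CDC34 family, read 8.88, 8.90 and 8.97 in g2_1, 8.97, 9.14 and 9.18 in g3_4, and 9.89, 10.00 and 10.05 in the control. Its arrays were tight within each group, and the averaged log2 fold change was -0.97 ± 0.08 (SE).

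The other members of this group were smaller in size but alike in direction. CHMP5, a subunit associated with the ESCRT-III membrane-cutting machine, was at -0.90 with both clones averaged. DCAF12, a substrate receptor of CUL4 ligases, was at -0.81, DNAJA1, an HSP40 co-chaperone of HSP70, at -0.77, and UBAP1, a subunit of ESCRT-I, at -0.72. CAAP1, named as an inhibitor of caspase activity, was also at -0.72, and TOPORS, a ubiquitin and SUMO ligase, at -0.70. FOCAD, tied to the SKI complex of RNA decay, was called with the clones averaged (-0.64) but in neither clone alone. The size of its value leaned on control array 1, which read 8.22, against 7.33 and 7.37 on the other control arrays. Without that array the averaged log2 fold change was -0.34, and FOCAD was still called (adjusted p 0.0378 by limma). Its averaged call was lost when some single knockout arrays were left out. BAG1, the silent member of the group, had 5.44 to 6.05 on knockout arrays and 5.74 to 6.09 on control arrays, which overlapped.

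**Figure D3:**
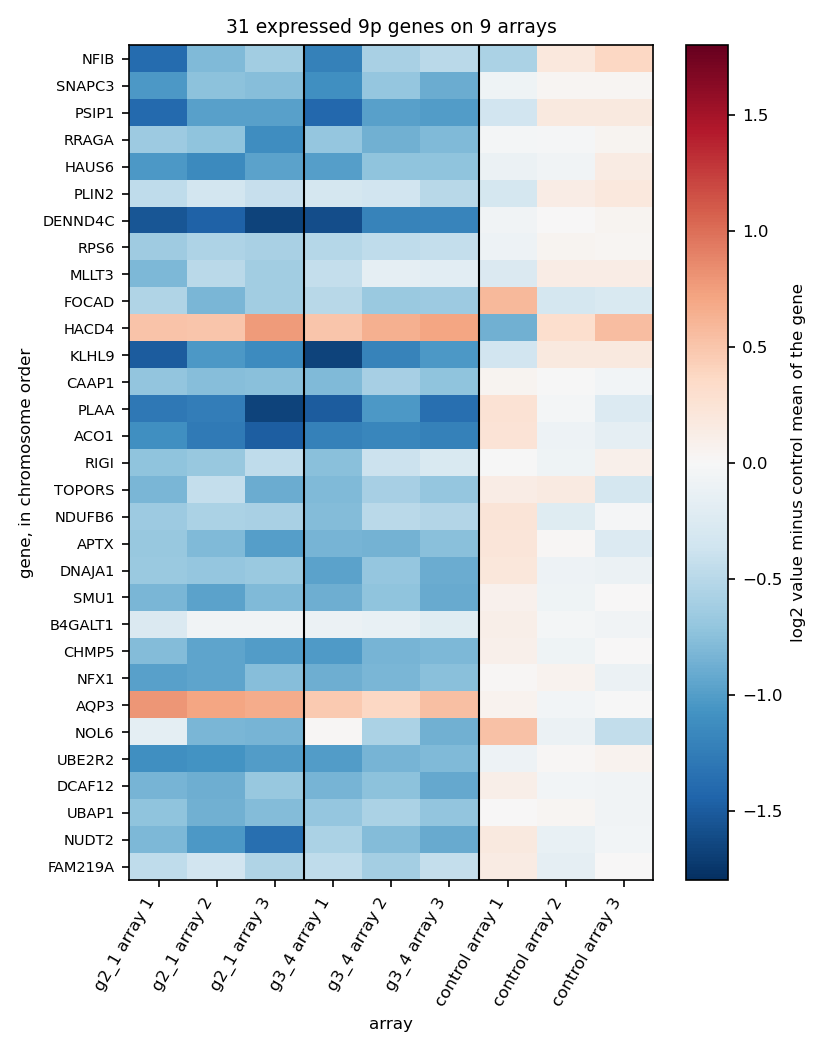
Difference of each array from the control mean (colour, log2) for the 31 expressed genes in chromosome order (rows) on 9 arrays (columns: g2_1, g3_4, control). The 6 knockout columns are alike in nearly every row, and AQP3 and HACD4 carry the opposite colour.

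Of 6 expressed genes on the list of RNA, ribosome and nucleic acid genes, 5 were lower in each clone, beside 8.4% of expressed transcript clusters. RPS6, a protein of the small ribosomal subunit and a known target of S6 kinase, read 12.47, 12.55 and 12.53 in g2_1, 12.60, 12.65 and 12.68 in g3_4, and 13.02, 13.16 and 13.14 in the control. The groups did not overlap, although the averaged log2 fold change was only -0.53 ± 0.08 (SE). SNAPC3, a subunit of the complex that starts transcription of small nuclear RNA genes, was at -0.87, SMU1, a splicing factor, at -0.85, and APTX, which mends DNA ends, at -0.81. RIGI, the sensor of viral RNA that switches on the interferon genes, read 8.08, 8.13 and 8.35 in g2_1, 8.06, 8.42 and 8.53 in g3_4, and 8.80, 8.73 and 8.90 in the control. It was lower in each clone, at -0.55 ± 0.12 (SE) averaged. NOL6, a nucleolar protein of ribosome assembly, overlapped between groups, at 8.32 to 9.20 on knockout arrays and 8.74 to 9.71 on control arrays, and was called in neither clone. Compared within each array number, all its knockout values lay below the control value. It was called with the clones averaged when the array number entered the fit as a replicate block, and when the arrays numbered 1 were left out.

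Among 4 expressed genes of transcription and chromatin, 2 were lower in each clone, beside 8.4% of expressed transcript clusters. PSIP1, the chromatin reader also known as LEDGF, read 10.35, 10.77 and 10.77 in g2_1, 10.34, 10.77 and 10.74 in g3_4, and 11.40, 11.92 and 11.93 in the control. In each group array 1 read lower than its companions, and all knockout arrays stayed below the control. The averaged log2 fold change was -1.13 ± 0.16 (SE). NFX1, a repressor that binds X-box promoters, was at -0.85. NFIB, a nuclear factor I protein, and MLLT3, a YEATS-domain protein of elongation complexes, were at -0.84 and -0.45 averaged. Both overlapped with the control on at least 1 array and were called in g2_1 but not in g3_4. Their averaged calls were lost when some single arrays were left out. Compared within each array number, all knockout values of both genes lay below the control value.

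Of 6 expressed genes of metabolism, 3 were lower in each clone and none was higher, beside 8.4% and 9% of expressed transcript clusters. ACO1, the cytosolic aconitase that doubles as an iron-regulatory RNA-binding protein, read 8.32, 8.15 and 7.94 in g2_1, 8.21, 8.25 and 8.21 in g3_4, and 9.67, 9.33 and 9.26 in the control. It did not overlap between groups and was at -1.24 ± 0.11 (SE) averaged. NUDT2, a hydrolase of the signalling dinucleotide Ap4A, was at -0.91, and NDUFB6, a subunit of mitochondrial complex I, at -0.60. PLIN2, a coat protein of lipid droplets, was at -0.40 and was called only with the clones averaged, a call lost when most single arrays were left out. B4GALT1, a galactosyltransferase of the Golgi, had 8.68 to 8.88 on knockout arrays and 8.87 to 9.04 on control arrays, which overlapped at their edge.

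HACD4, a dehydratase of fatty acid elongation, was the block's highest averaged value at 0.61 ± 0.25 (SE), yet was not called. It read 10.02, 10.01 and 10.27 in g2_1, 10.01, 10.15 and 10.22 in g3_4, and 8.64, 9.81 and 10.07 in the control. Control array 1 was far below the other control arrays, and without it the averaged log2 fold change was 0.17.

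The expressed membrane and signalling genes were DENND4C, RRAGA and AQP3. RRAGA, one of the Rag GTPases that report amino acids to mTORC1, was at -0.81 averaged and lower in each clone. AQP3 read 8.04, 7.96 and 7.92 in g2_1, 7.72, 7.62 and 7.79 in g3_4, and 7.32, 7.20 and 7.24 in the control. Every knockout array was above every control array, and the averaged log2 fold change was 0.59 ± 0.08 (SE). HAUS6, a subunit of the augmin complex that branches spindle microtubules, was the only expressed cytoskeletal gene and stood at -0.93. FAM219A, in none of the role groups, was at -0.47.

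The silent genes split in a different way. Of 53, 9 were lower in each clone, beside 6.97% of all transcript clusters, and 44 were called in neither. In the same 9 the knockout and control arrays did not overlap, beside 10.6%. Their control levels are given beside the calls as a description, since the control mean is itself 1 side of each fold change. In the 36 silent genes with a control mean under 5, too low for a decrease to be seen, none was called by limma (1 in g2_1 and 2 in g3_4 at an unadjusted p under 0.05), and the median log2 fold change was 0.06. Of 14 with a control mean from 5 to 7, 6 were lower in each clone, beside the same 6.97% of all transcript clusters. The remaining 3, TTC39B, ZDHHC21 and MOB3B, had control means above 7, all 3 were lower, and they count as silent only because their knockout values pull the 9-array mean down, so that their direction was fixed by the limit. The limit thus takes the genes with the largest differences out of the expressed set. In the other direction, KLHL9, FOCAD and TOPORS passed it by the least, with 9-array means of 7.22 each, and the knockout means of KLHL9 and TOPORS lay below 7 in both clones, so that these genes passed through the control arrays. The highest means under it were 6.16 for MOB3B, 5.99 for MYORG and 5.92 for TTC39B.

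TTC39B read 4.40, 4.67 and 4.77 in g2_1, 4.07, 4.96 and 5.07 in g3_4, and 8.40, 8.38 and 8.53 in the control. ZDHHC21, a palmitoyl transferase of signalling proteins, read 4.12, 4.09 and 4.17 in g2_1, 4.02, 4.63 and 4.54 in g3_4, and 7.50, 7.74 and 7.52 in the control. All 6 knockout arrays had ZDHHC21 at or under the first quartile of their own values, and 2 of 6 had TTC39B there, so that these values lie near the bottom of the array's range and the fold changes may be compressed. Both genes were at more than 3 log2 units below the control in each clone, with ZDHHC21 at -3.33 ± 0.13 (SE) averaged.

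MOB3B, of the MOB family of kinase co-activators, read 5.27, 5.33 and 5.27 in g2_1, 5.42, 5.35 and 5.47 in g3_4, and 9.13, 6.97 and 7.25 in the control. IFT74, a subunit of the particle that carries cargo in cilia, read 4.16, 3.97 and 3.93 in g2_1, 4.19, 4.10 and 3.96 in g3_4, and 7.34, 5.60 and 5.89 in the control. In both genes control array 1 stood well above the other control arrays. Without that array the averaged log2 fold change was -1.76 for MOB3B, against -2.43 with it, and -1.69 for IFT74, against -2.23 with it, and the groups did not overlap either way.

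The other 5 lower silent genes had fitted differences closer to 0. C9orf72, part of a membrane-traffic and autophagy complex, was at -1.30 averaged, and ELAVL2, an RNA-binding protein of neurons, at -1.24. CNTLN, a centrosome protein, was at -1.06, CCDC171 at -0.82 and ACER2, an alkaline ceramidase of the Golgi, at -0.60. In all 5 the knockout arrays lay below the control arrays. All 6 knockout arrays had ELAVL2, CCDC171 and also IFT74 at or under the first quartile of their own values, so that these fold changes may be understated and their order is not a ranking. Control means of these genes were between 5 and 7, so that they were weak signals in L-1236 cells to begin with.

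The interferon ligand genes stayed at the bottom of the scale in every group. All 16 measured, 15 in the cluster plus IFNK, had values between 3.84 and 4.76 on all 9 arrays. Their median was 4.22 in g2_1, 4.21 in g3_4 and 4.11 in the control, and their averaged log2 fold changes ran between -0.16 and 0.20. None of the 16 was called in either clone by limma (0 in g2_1 and 1 in g3_4 at an unadjusted p under 0.05), beside 6.97% of all transcript clusters lower and 4.48% higher in each clone. At this level a lowering of the size seen in the expressed genes was not detectable. IFNA14 was the one whose knockout arrays all lay above the control arrays, at 4.13 to 4.44 against 3.92 to 4.10, beside 9.7% of all transcript clusters.

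Several block members share a start region with a neighbour on the opposite strand, which gave pairs with starts less than 1000 bases apart. APTX and DNAJA1, 153 bases apart, were both lower, at -0.81 and -0.77 averaged. BAG1 and CHMP5, 341 bases apart, stood at -0.29 and -0.90, and of the pair only CHMP5 was expressed and called. KIF24 and NUDT2, 301 bases apart, stood at -0.07 and -0.91, with KIF24 silent. FAM219A and DNAI1, 235 bases apart, stood at -0.47 and -0.23, with DNAI1 silent.

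The comparison that played no part in choosing the block was clone against clone. With limma, none of the 31 expressed and none of the 53 silent genes differed between g2_1 and g3_4 at an adjusted p under 0.05. At an unadjusted p under 0.05 it was 2 of the 31 and 1 of the 53, beside 4.84% of all transcript clusters with a mean above 7 and 4.41% of all. Across the array, 7 transcript clusters were lower in g2_1 than in g3_4 (0.0335%) and 4 were higher (0.0191%), so calls were rare everywhere. The 95% interval of the difference lay within 1 log2 unit of 0 for all 31 expressed genes and within 0.5 for 24 of them. The outermost bounds were -0.78, for NFIB, and 0.61, for HACD4. These clone comparisons come from the fit that did not pair the arrays by number.

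The 2 expressed genes past the unadjusted threshold were MLLT3 and AQP3. MLLT3 was lower in g2_1 than in g3_4 by a log2 difference of -0.38, with an interval of -0.68 to -0.07 and an adjusted p of 0.941 by limma. AQP3 was higher in g2_1, by 0.26, with an interval of 0.06 to 0.47 and an adjusted p of 0.857 by limma. The median clone difference over the 31 genes was -0.04, and 23 of 31 were below 0, beside a median of 0.01 and 3660 of 7889 below 0 over all expressed genes. For no single gene of the block was a difference between these clones, made with guides to different exons, detected after adjustment.

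**Figure D4:**
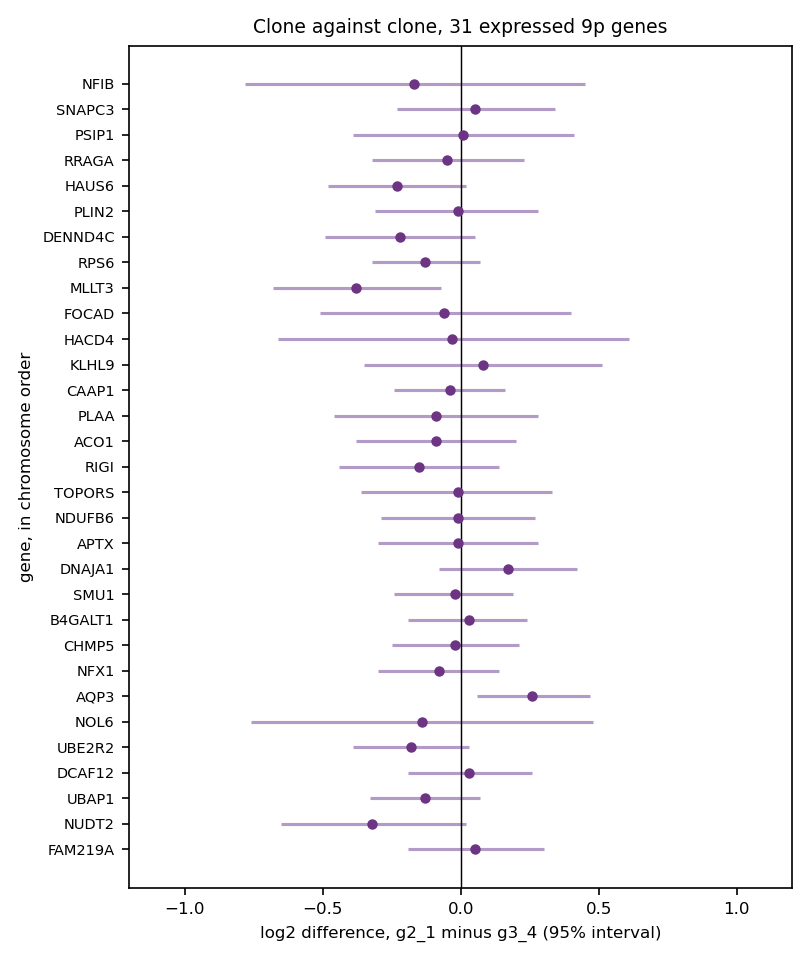
Log2 difference of g2_1 minus g3_4 (x axis, log2) with its 95% interval for the 31 expressed genes, in chromosome order. All intervals lie within 1 unit of 0, and those of MLLT3 and AQP3 leave 0 out.

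Many members of the block work as 1 subunit of a larger complex whose other subunits are encoded elsewhere, and those partners did not enter the choice of the block. In all, 85 partner genes outside 9p were measured in 9 lists. With limma, 3 were lower in each clone and 6 higher, beside 6.97% and 4.48% of all transcript clusters. Partners lay on both sides of the mean level of 7, and above it the shares were 8.4% and 9%. The median averaged log2 fold change of the partners was 0.00 (quartiles -0.12 and 0.18). RPS6 stood at -0.53, against a range of -0.25 to 0.10 for 18 other proteins of the small ribosomal subunit. HAUS6 stood at -0.93, against a median of -0.02 for 4 other augmin subunits. CHMP5 stood at -0.90, against a median of 0.07 for 9 other ESCRT-III genes, and SNAPC3 at -0.87, against 0.18 for 4 other subunits of its complex.

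The partners that passed the test in each clone were these. NDUFB6 was lower at -0.60, while NDUFB3, NDUFB7 and NDUFB10 of the same part of complex I rose in each clone. They stood at 0.89, 0.52 and 0.68 averaged, within a list median of 0.31 over 10 genes. NDUFB3 lies in a part of chromosome 2q whose 52 expressed genes had a median of 0.41, and the share of its position was not tested. DNAJA1 was lower at -0.77, while the chaperone HSPA1A (0.42) and the co-chaperones BAG2 (0.73) and BAG3 (0.60) rose in each clone. RRAGA stood at -0.81, and RRAGD, another Rag GTPase, fell in each clone, at -4.31. The list of RIG-I signalling and interferon receptor genes had a median of 0.06 over 14 genes, with IRF9, a subunit of the factor that interferon activates, falling in each clone (-0.51). Of 10 other subunits of the ciliary particle of IFT74, IFT46 fell in each clone (-0.78).

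**Figure D5:**
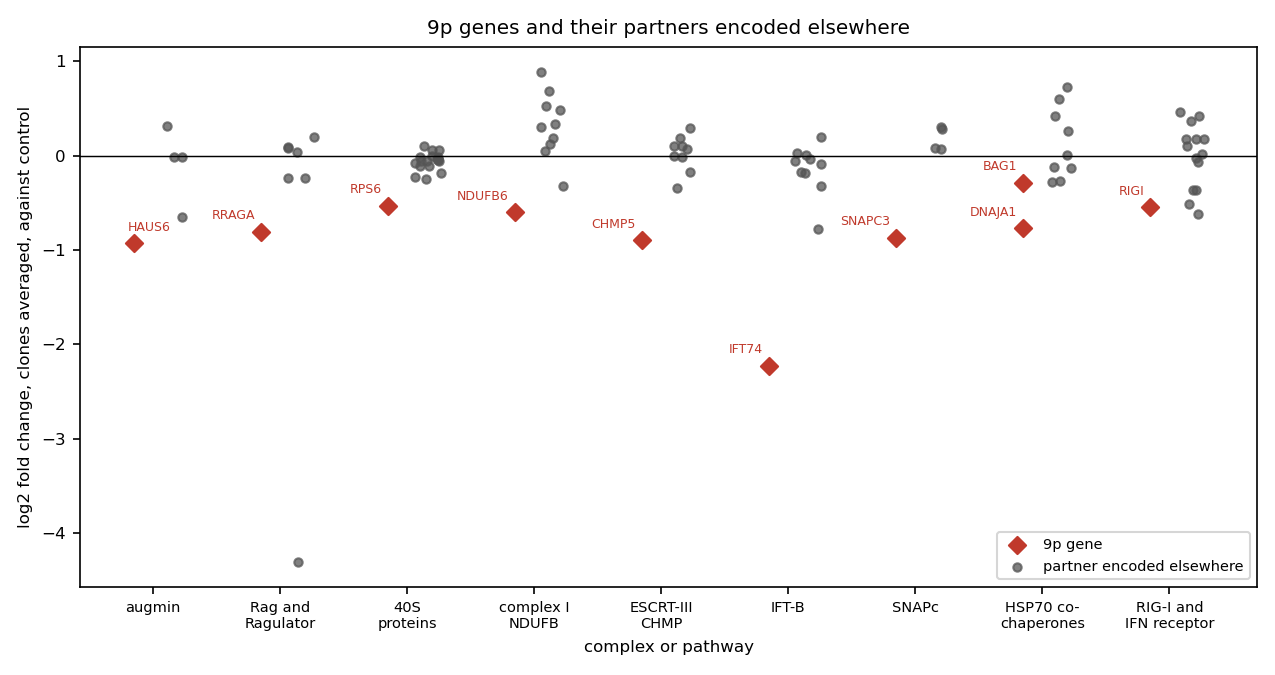
Log2 fold change against the control with both clones averaged (y axis, log2) for partner genes outside 9p in 9 complexes or pathways (x axis), with the 9p member of each marked. The 9p members sit below most of their partners, whose list medians lie between -0.07 and 0.31.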

How the data were processed

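Expression was measured on 9 Clariom S arrays. The authors deposited log2 values; the submitters' processing notes name RMA and Transcriptome Analysis Console 4.0 for them. RMA subtracts background, sets all arrays to 1 distribution and summarises probes, which compresses differences near the bottom of the range. The genome build behind the array's annotation is not given in the sources used here, so RefSeq GRCh38.p14 served for names, order and promoters. Of 21448 transcript clusters, 555 unmapped ones were left out and 20893 were tested with limma 3.58.1 (R 4.3.3): lmFit on 3 groups, eBayes, Benjamini-Hochberg adjustment over all rows. "Both clones averaged" is the mean of the 2 clone means minus the control mean. Arrays have no read depth; their number, 3 a group, limits the precision.

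The members, gene lists and level limit of 7 were chosen with earlier results of these data known. The rule for named genes took the 12 lowest and 6 highest expressed members by averaged fold change, members called between the clones, 3 on each side of the level limit, the first and last expressed, members of the role lists, the 4 silent members with the largest change, up to 3 partners a list that passed in each clone, and LTA. CCDC171, IFNA14, the start-sharing pairs, DMAC1, RPP25L, KDM4C, DCTN3 and the genes singled out for array 1 were named after their values were seen.

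Same-numbered arrays of the 2 clones deviated together (correlations of deviations 0.435, 0.191 and 0.31), so the numbers pair the clones; against control arrays of the same number, g2_1 gave 0.285, 0.0426 and 0.183 while g3_4 gave 0.298, 0.0565 and 0.257, all above 0 but not all over 0.1, so the control was treated as unpaired. Tested on simulated data, the fit recovered 83% of 100 changes of 0.8 log2 units and 100% of 100 changes of 2, with 8 false calls among 20893 transcript clusters.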

Additional observations from a re-analysis of the deposited data

How the results depend on the processing

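Limits: 3 arrays a group and 1 clone a guide. Control array 1 stood apart in several block genes (MOB3B, IFT74, HACD4, FOCAD). In NFIB and NOL6 array 1 stood apart in the same direction in all 3 groups, and not only in the control. The arrays numbered 1 also had the highest RNA integrity number, and the part of this was not tested. Values near 4 to 5 log2 units cannot show a decrease.

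Centring each array on its median moved the median of all transcript clusters by 0.11, to 0.15, and the share of lower among all calls to 31.5%, against 54.7% as deposited. The median of the 31 expressed genes was then -0.68 in g2_1, -0.65 in g3_4 and -0.70 averaged, with 23, 22 and 24 lower, 29 of 31 still below 0 and B4GALT1 at -0.03. With unequal variances per group, 0 genes were lower in g2_1, 0 in g3_4 and 11 averaged, beside 0.148%, 0.311% and 2.21% of all transcript clusters called; 24, 22 and 23 were lower at an unadjusted p under 0.05. Without the arrays numbered 1, an alternative chosen after seeing the data, the medians were -0.69 in g3_4 and -0.73 averaged, the clone difference was -0.09, and 26, 21 and 28 genes were lower.

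Leaving out 1 array at a time, the lower counts ran between 22 and 27 in g2_1, 21 and 24 in g3_4, and 24 and 27 averaged. The medians ran between -0.82 and -0.74 in g2_1, -0.78 and -0.70 in g3_4, and -0.82 and -0.71 averaged. No gene was called between the clones in any of these, and that median ran between -0.09 and -0.01. The averaged calls of PLIN2, NFIB, MLLT3 and FOCAD were lost without 1 array or another; HACD4 was called without control array 3. Without control array 1 the averaged value of NOL6 was -0.27 and that of B4GALT1 was -0.09.

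With a replicate block, the lower counts were 27 in g2_1, 26 in g3_4 and 28 averaged. Between the paired clones it called 0 of the 31 expressed genes, and 4 had an unadjusted p under 0.05 by limma. Over all transcript clusters it called 27 between the clones (0.129%), against 11 without the block. Other level limits gave 26, 24 and 28 lower of 32 (mean above 6), 21, 19 and 22 of 25 (above 8), and 28, 26 and 30 of 34 (control mean above 7). The averaged contrast was followed over the alternative fits for the 31 expressed genes and the 9 silent genes it called. Silent genes without a call were not in this count. It kept its side of the threshold in 631 cases and lost its call in 45, of which 22 came from the test with unequal variances. It gained a call in 3 (NOL6 with the block and without the arrays numbered 1, HACD4 as above), and none reversed. Fitting only the groups compared gives no value for both clones averaged, which uses all groups. Averaging rows of a symbol changed nothing, since each had 1.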
